A study of Drosophila melanogaster with 2 samples.

Results

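The 10 genes described here are markers and regulators of Drosophila glia and of the barrier that glia form around the nervous system: repo, gcm, gcm2, moody, loco, Gli, nrv2, Eaat1, Gs2 and alrm. They were chosen by name, with earlier results of these data known, out of 13945 protein-coding genes on the 6 chromosome arms. Binding of the nuclear receptor Hr78 was measured at them by ChIP-seq, as peak summits that lay within each gene's annotated span or up to 2 kb beyond either end. The samples were whole embryos of Drosophila melanogaster, male and female together, collected at 8 to 16 h, in 2 biological replicates numbered 1 and 3. Both came from 1 transgenic line of strain Hr78-GFP that carries Hr78 with eGFP at its C terminus, and chromatin was precipitated through the GFP tag. The sequences that drive the tagged copy are not given in the labels, and no untagged group was analysed here. Each replicate had 30000 peaks, the pooled reads of both gave another 30000, and 5723 of these formed the optimal list, which was thresholded on reproducibility between replicates. Sequencing depth is unknown, because no file gave read counts. With a single group there was no test between conditions, and all values below are descriptions of these lists.

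Glia of the fly embryo arise when the transcription factors Gcm and Gcm2 switch neural precursors to the glial fate and turn on Repo, the homeodomain protein that nearly all lateral glia keep. Surface glia then seal the nervous system with septate junctions. Their tightness depends on the receptor Moody and its partner Loco. Astrocyte-like and other glia inside take up and convert neurotransmitter, with Eaat1 and Gs2 among the proteins they use. Glia are a minority of the cells of a whole embryo, so a strong peak in few cells and a weak peak in many cells cannot be told apart in these data. Septate junctions and their proteins also occur in other epithelia.

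Hr78 summits of the optimal list were present at 6 of the 10 genes and absent from 4. The barrier genes moody, Gli, nrv2 and loco, the glutamine synthetase gene Gs2 and the fate gene gcm2 had 17 optimal summits in 13 regions. The pan-glial gene repo, the primary fate gene gcm, the glutamate transporter gene Eaat1 and the astrocyte gene alrm had none. By the same rule, 29.0% of all protein-coding genes had an optimal summit. This comparison is limited by the choice of the 10 genes with earlier results known. Longer genes had one more often, and 6 of the 10 genes were in the top length quartile, with an extended span of at least 9.0 kb. Of these 6 genes, 5 had an optimal summit, against 50.9% of all genes of that quartile. In the quartile from 6.17 to 9.0 kb, gcm2 had a summit and repo and gcm had none, against 28.0% of genes. For alrm, in the quartile from 5.18 to 6.17 kb, the share over all genes was 22.5%. The 10 genes held 15.7 optimal summits per 100 kb of extended span, against 5.31 over all protein-coding genes, where overlapping genes count the same summit more than once. Taking only summits whose nearest protein-coding start site was the gene's own, the same 6 genes had a summit, against 17.8% of all genes. Neither this share nor the number of summits per 100 kb was matched by length quartile.

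**Figure D1:**
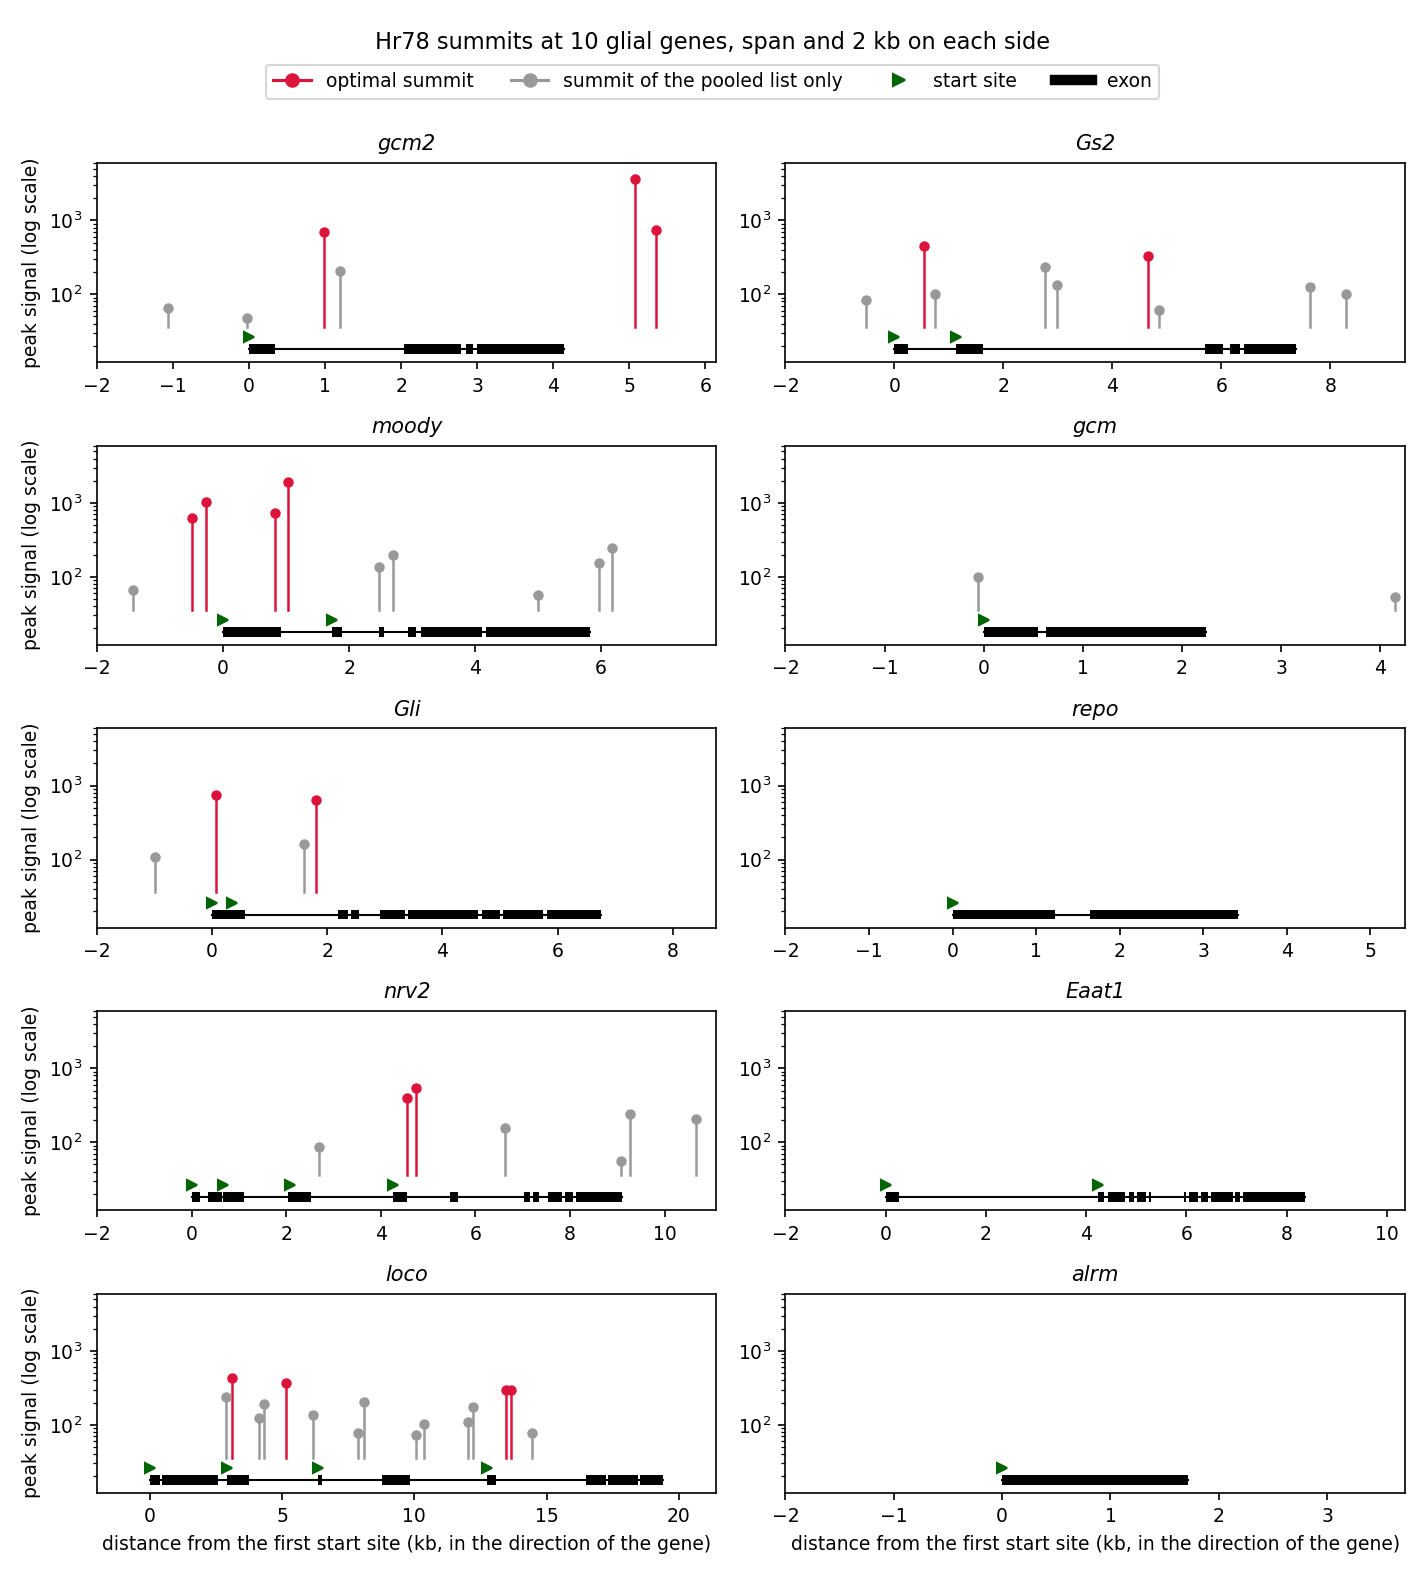
Peak signal (log scale) of each summit against its distance in kb from the first start site of the gene, in the direction of transcription, for the 10 genes with 2 kb on each side. Red stems are optimal summits, grey stems are summits of the pooled list only, green arrowheads are start sites and black boxes are exons; the panels of repo, Eaat1 and alrm hold no summit, and that of gcm holds 2 weak ones.

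The sequence at each summit was read from the RefSeq copy of genome release 6, the build of the files (dm6 in the labels), as 101 bp on the plus strand centred on the summit. The windows below are the highest summits of each bound gene, and of the promoter next to gcm2, that overlap no UTR, and a weaker loco window with several hexamers. Capitals mark the hexamer AGGTCA, which the DNA-binding domain of the receptor family recognises, and its variants AGTTCA and GGGTCA and GGTTCA, on either strand.
moody, X:2049033-2049133: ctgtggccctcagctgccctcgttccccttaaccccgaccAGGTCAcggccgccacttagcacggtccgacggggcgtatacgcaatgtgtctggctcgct
gcm2, 2L:9609503-9609603: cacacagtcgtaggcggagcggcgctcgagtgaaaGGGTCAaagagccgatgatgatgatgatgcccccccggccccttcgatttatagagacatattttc
Trx2, beside gcm2, 2L:9613590-9613690: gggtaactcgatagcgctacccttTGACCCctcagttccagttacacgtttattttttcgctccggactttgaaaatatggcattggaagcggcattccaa
Gli, 2L:15760906-15761006: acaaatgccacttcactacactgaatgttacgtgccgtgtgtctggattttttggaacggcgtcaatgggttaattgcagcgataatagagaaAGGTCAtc
nrv2, 2L:6794062-6794162: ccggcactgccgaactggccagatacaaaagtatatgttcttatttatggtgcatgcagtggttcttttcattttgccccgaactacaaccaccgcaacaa
Gs2, X:11423316-11423416: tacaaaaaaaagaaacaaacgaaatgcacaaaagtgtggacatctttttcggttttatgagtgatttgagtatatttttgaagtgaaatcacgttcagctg
loco, 3R:22634195-22634295: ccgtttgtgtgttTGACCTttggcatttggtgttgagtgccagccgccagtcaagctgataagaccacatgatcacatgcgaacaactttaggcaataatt
loco, 3R:22625873-22625973: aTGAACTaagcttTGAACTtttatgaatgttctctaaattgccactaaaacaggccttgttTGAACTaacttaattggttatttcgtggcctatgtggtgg

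The fate genes differed among themselves. At gcm2 (FBgn0019809, 2L:9608562-9612706, plus strand), which encodes the second Gcm factor, the optimal summit nearest its own start lay at 2L:9609553 in intron 1 of 3, 991 bp downstream of the start site. Its signal was 689, rank 1354 of the optimal list, and the nearest replicate summits ranked 1880 in replicate 1 and 1125 in replicate 3. GGGTCA, shown in the gcm2 window above, was centred 12.5 bp below the summit. A shoulder of the same region, at 2L:9609762, had a signal of 208 and was in the pooled list only. At the start site itself, 32 bp upstream, the pooled list had a signal of 46.9, close to the lowest of that list (45.7), and replicate 1 had no summit within 200 bp.

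The highest peak within reach of any of the 10 genes lay beyond the 3' end of gcm2 and was closer to Trx2, the gene of a thioredoxin. It was at 2L:9613640, 934 bp past the end of gcm2 and 226 bp from a Trx2 start site, with a signal of 3645. It ranked 42 in the optimal list, 39 in replicate 1 and 41 in replicate 3. A second summit of the same region, at 2L:9613913, had a signal of 730. It ranked 1228 in the optimal list. The nearest replicate summits, 75 and 92 bp away, ranked 114 in replicate 1 and 407 in replicate 3. Both summits count for gcm2 only through the 2 kb extension. Within its span alone, the highest signal of gcm2 was 689.

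At gcm (FBgn0014179, 2L:9579498-9581745, minus strand), the primary glial switch gene, no optimal summit lay within 2 kb. A pooled summit at 2L:9581805, 60 bp upstream of the start site, ranked 17570 of 30000 with a signal of 98.8. Its nearest replicate summits ranked 21158 and 17860 in replicates 1 and 3. A weaker one at 2L:9577593, with a signal of 53.9, was nearest the start of Mtpalpha, and replicate 1 had no summit within 200 bp of it. The nearest optimal summit, 2973 bp beyond the 3' end of gcm and also nearest Mtpalpha, had a signal of 373 and fell just outside the 2 kb. The glial homeodomain gene repo (FBgn0011701, 3R:18236192-18239602, plus strand) had no pooled summit. Replicate 3 alone had a summit 64 bp upstream of its start site, which ranked 23158 with a signal of 34.7. Both replicates had a summit about 1.9 kb past its 3' end and nearest CG7156, at ranks 17561 and 15475 in replicates 1 and 3. The nearest optimal summit, 5131 bp away, was nearest 14-3-3epsilon.

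The moody gene had the strongest peaks of its own. It encodes the G protein-coupled receptor of the surface glia that form the barrier (FBgn0025631, X:2044292-2050120, minus strand), and it lies within the span of CG4313 on the other strand. A single optimal region of 2724 bp, X:2048382-2051105, held 4 summits. Only 20 of the 4939 optimal regions (0.405%) were as wide, and 18 (0.364%) held as many summits. The highest summit, at X:2049083, was in intron 1 of 4, 688 bp upstream of the inner start site. Its signal was 1954, rank 161 of the optimal list. It ranked 165 in replicate 1 and 151 in replicate 3. AGGTCA lay on the plus strand at X:2049073-2049078, 7.5 bp from this summit. Of the 3 others, the summit at X:2049289 in a 5' UTR had a signal of 740. The summits 276 and 487 bp upstream of the outer start had signals of 1038 and 617. The first of these ranked 391 in replicate 3 and 1120 in replicate 1. The gene also had 6 weaker summits of the pooled list, with signals from 56.4 to 249. The highest of those was 128 bp from the start of CG4325.

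The loco gene (FBgn0020278, 3R:22619968-22639387, minus strand) had as many optimal summits as moody, with lower signals, spread over introns of a longer span. It encodes a regulator of G protein signalling that acts with Moody. At least 4 optimal summits were found at these 2 genes and at 3.31% of all protein-coding genes. Both counts of 4 rest on neighbouring summits, 206 and 211 bp apart at moody and 200 bp apart at loco. With 1 summit kept per such pair, neither gene reached 4. The 3.31% was not recounted in that way and was not matched for length. The median extended span was 6.17 kb over all genes, against 9.83 kb for moody and 23.4 kb for loco. At loco the signals were 428, 372, 297 and 294, ranks 2990, 3675, 5088 and 5139 of 5723. The highest, at 3R:22636299, was 157 bp downstream of an inner start site and the others were intronic. It ranked 2697 in replicate 1 and 4076 in replicate 3. The summit at 3R:22625723 had no counterpart in replicate 1, whose nearest summit was 242 bp away, and ranked 4545 in replicate 3. A further 11 weaker summits along the gene had signals from 73.0 to 235, which made 15 pooled summits in an extended span of 23.4 kb.

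Both junction genes had optimal summits close to start sites. Gli (FBgn0001987, 2L:15756002-15762758, minus strand) encodes gliotactin, a protein of tricellular septate junctions. Its highest summit, at 2L:15762686, was 72 bp downstream of the outer start site. Its signal was 749, and it ranked 1622 in replicate 1 and 941 in replicate 3. A second, at 2L:15760956 in intron 2 of 8, had a signal of 642 and ranked 1696 in replicate 1 and 1390 in replicate 3. The AGGTCA of the Gli window above lay 45.5 bp from this second summit. The gene nrv2 (FBgn0015777, 2L:6789770-6798862, minus strand) encodes a beta subunit of the sodium pump that septate junctions need. Its 2 optimal summits, at 2L:6794112 and 2L:6794316, were 487 and 283 bp downstream of an inner start site. Their signals were 541 and 397, and the first ranked 2190 in replicate 1 and 2302 in replicate 3. The neighbouring paralogue nrv1 had a stronger peak of its own, with a signal of 1693 at 2L:6787243, which fell outside the 2 kb of nrv2.

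The genes of astrocytes and of transmitter handling held either modest peaks or none. Gs2 (FBgn0001145, X:11422832-11430197, plus strand), the glutamine synthetase, had an optimal summit in intron 1, 534 bp downstream of its first start site. Its signal was 448, and it ranked 2838 in replicate 1 and 3029 in replicate 3. A second, in intron 2 at X:11427491, had a signal of 327. It ranked 6049 in replicate 1 and 3606 in replicate 3. There were 7 more in the pooled list, with signals from 61.3 to 232. Neither Eaat1 (FBgn0026439, 2L:9333567-9341925, plus strand), the glial glutamate transporter, nor alrm (FBgn0039332, 3R:25381065-25382781, minus strand), a leucine-rich repeat protein of astrocytes, had a summit in the pooled list or in either replicate list. Each lay in a long stretch with no pooled summit: 152 kb around Eaat1, with 11 protein-coding genes wholly inside, and 108 kb around alrm, with 9. The replicate lists gave 151 and 152 kb around Eaat1 and 108 kb in each for alrm. The median gap between neighbouring pooled summits was 1.11 kb. Only 54 of 29994 gaps were as long as that around Eaat1, and these made up 12.5% of the sequence between the outermost summits of the arms. For alrm there were 122, with 19.8%. By contrast, the stretches without a pooled summit around repo and gcm were 10.4 and 4.21 kb. Weaker enrichment than the lowest listed signal would not appear in any list.

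**Figure D2:**
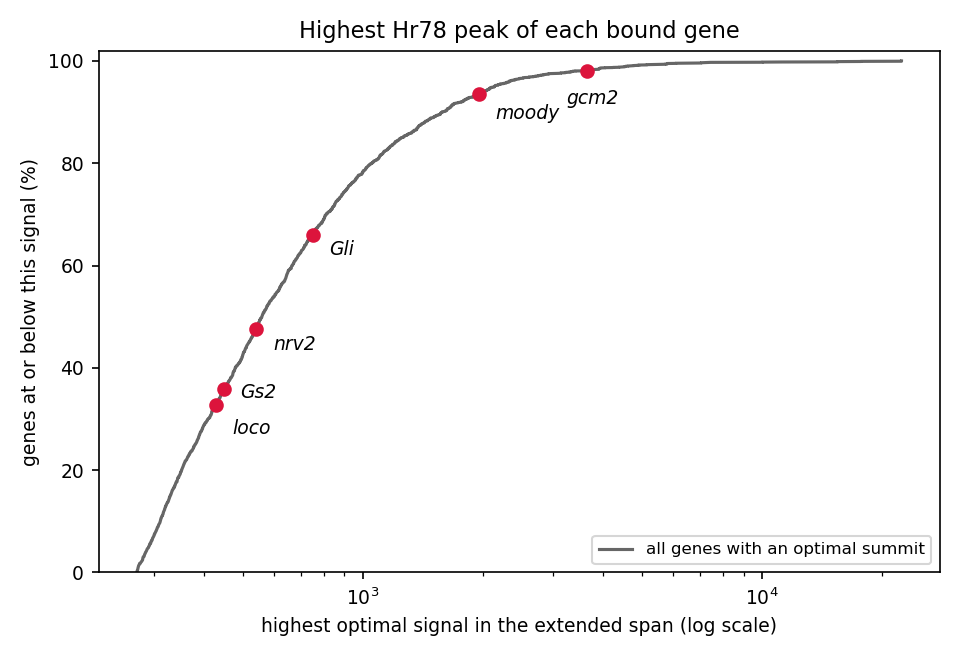
Cumulative share of genes (%) against the highest optimal signal in the extended span (log scale), for the 4049 protein-coding genes with an optimal summit (line) and the 6 glial genes among them (red points). The genes run from 428 at loco, in the lower part of the curve, to 1954 at moody and 3645 at gcm2, whose peak is at the Trx2 promoter.

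By signal, 1.88% of the 4049 genes with an optimal summit had a higher peak than gcm2 with the Trx2 peak counted, and 6.54% had a higher one than moody. For Gli that share was 33.9%, for nrv2 52.4%, for Gs2 64.2% and for loco 67.3%. The median highest signal was 645 over the 6 genes and 559 over all genes with a summit. Counting only summits nearest their own start site, the order by signal was moody, Gli, gcm2, nrv2, Gs2 and loco. By best rank, replicate 3 gave this same order, and replicate 1 differed only in having loco (2697) ahead of Gs2 (2838). Gli was ahead of gcm2 within each replicate (1622 against 1880 in replicate 1, and 941 against 1125 in replicate 3), although the ranges of their ranks overlapped. The ranks of Gs2 (2838 and 3029) lay within those of loco (2697 and 3561), and this pair was not separated beyond the spread between replicates. The ranks of moody stood clear of all the others.

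Both replicates held most of these summits, which is largely set by the threshold on reproducibility between them that made the optimal list. Of the 17, 16 (94.1%) lay within a peak of each replicate list, against 97.0% of all optimal summits. Within the 5723 highest peaks of both lay 15 (88.2%), against 78.9%. For the 16 summits with a replicate summit within 200 bp in each, the larger rank was at the median 1.29 times the smaller, and at most 3.57 times (the second Trx2 summit). Over the 5623 optimal summits with such a match the median was 1.36. Of the 36 further summits found in the pooled list only, 29 lay within a peak of both replicate lists. Any pooled summit, optimal or not, was present at 7 of the 10 genes, against 50.7% of all protein-coding genes. Length matters here too: the share was 70.6% in the top length quartile, which holds 6 of the 10 genes. It was 50.7% in the next quartile, which holds 3, and 44.6% in that of alrm.

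**Figure D3:**
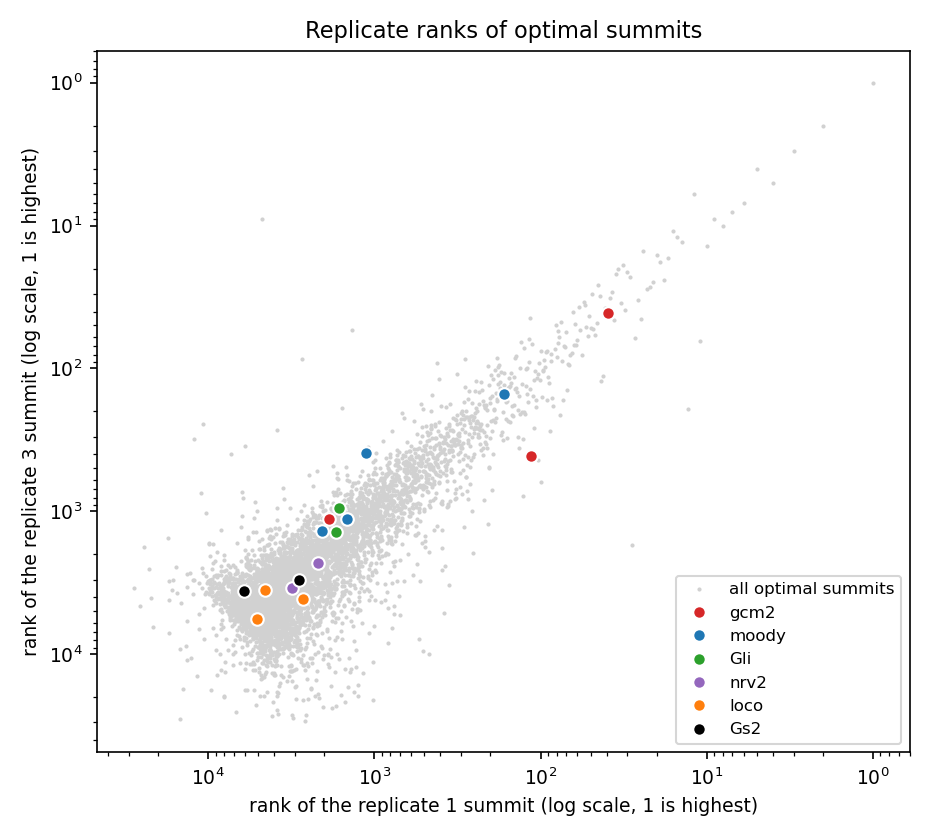
Rank in replicate 3 against rank in replicate 1 (both log scales, 1 is the highest) of the replicate summits nearest each optimal summit, within 200 bp. Grey points are all optimal summits and coloured points are 16 of the 17 at the glial genes, which follow the grey band; the loco summit with no replicate 1 match is not drawn.

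By position, the 17 summits divided between start sites and introns. Within 500 bp of a protein-coding start site lay 8 of them, 2 of these at Trx2. Another 8 were in introns and 1 was in a 5' UTR. These counts are not set against all optimal summits, since the rule takes only summits in or near a gene. The median distance to the gene's own nearest start site was 711 bp. In close pairs were 8 of the 17 (47.1%), with a partner 150 to 250 bp away, against 29.4% of all optimal summits. These 8 formed only 4 pairs, at moody, nrv2 and loco, and both moody pairs lay in the same region. The rule for taking summits limits this comparison as well. At moody (both pairs), nrv2 and loco the member of the pair with the lower coordinate was the stronger, by 2.64, 1.68, 1.36 and 1.01 times. Which member was stronger was not counted over all close pairs of the list, so this order cannot be called particular to these genes.

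The receptor hexamer was found at some of the strongest summits and at weaker ones. AGGTCA lay within 50 bp of 4 of the 17 summits (23.5%): the highest of moody, the intronic summit of Gli, and the loco summits at 3R:22634245 and 3R:22636299. Over all optimal summits the share was 10%, and in windows shifted 500 bp toward higher coordinates it was 2.66%. One of the 4 forms of the hexamer lay at 7 summits (41.2%), against 30.3% of all optimal summits. The additional 3 were the gcm2 intron and the Trx2 promoter, both with GGGTCA, and the loco summit at 3R:22625923, with 3 copies of AGTTCA. A direct repeat of these forms with 1 base between them, which 1.36% of all optimal summits had, was found at none of the 17. Within 25 bp of the summit, the shares were level with those of all optimal summits. AGGTCA was there at 1 of the 17, the highest of moody (5.88%, against 5.78%). Any of the 4 forms was there at 3 (17.6%, against 17.7%), which were that moody summit, the gcm2 intron and the loco summit at 3R:22625923. Within 100 bp, the shares were 29.4% for AGGTCA and 52.9% for any form, against 15.7% and 46.5% of all optimal summits. The shares overlap in that AGGTCA is one of the 4 forms.

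Motifs of other factors were near the level of all summits. The GATA motif, in the forms AGATAA or AGATAG or TGATAA or TGATAG, lay within 50 bp of 4 summits (23.5%), against 24.2% of all optimal summits. The Gcm consensus, in the forms ATACGGGC or ATACGGGT or ATGCGGGC or ATGCGGGT, lay at none of the 17 and at 0.524% of all optimal summits. Among the 36 summits of the pooled list only, 1 (2.78%) had it, against 0.49% of all summits of that kind. It was ATGCGGGC at 2L:9607491-9607498, upstream of gcm2, under a peak of signal 64.7.

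Other genes of glia and of the barrier were bound at varied levels. Their lists, like the 10 genes, were read against the 29.0% of all protein-coding genes, and most of their genes are longer: the median extended span was 6.17 kb over all genes and between 11.1 and 41.4 kb in the lists. Among all genes with an extended span of at least 9.0 kb, the share was 50.9%. Of 5 further regulators of glial fate 4 had an optimal summit. The repressor gene ttk had a highest signal of 1787 and the ETS factor gene pnt 968 with 6 summits. The receptor gene N had 1116, at a summit nearest CG18508, and the zinc-finger gene zfh1 had 617. The homeodomain gene pros had no summit in the pooled list over an extended span of 83.1 kb.

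Of 18 septate junction genes, 10 had an optimal summit, although for some of these no summit was nearest the gene's own start site. The highest were at bou, a secreted Ly6 protein (1792), nrv1 (1693), Mcr, a complement-like protein (1394, nearest Bsg), and Atpalpha, the alpha subunit of the sodium pump (863). Among the partners of Moody in G protein signalling, 4 of 5 had one. The summit at Gbeta13F (2009) was nearest Gapdh2. Pka-C1, the catalytic subunit of protein kinase A, had 1227, and Galphai had 585 with 5 summits. At Galphao the signal was 292, nearest Cyp49a1, and Ggamma1 had none. Of the barrier transporter genes, the trehalose transporter gene Tret1-1 had 340 and the drug exporter gene Mdr65 had none.

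Among 11 genes of glial function 6 had an optimal summit. The innexin gene ogre had 1792, from the same summit as bou, and Inx2 had 647 with 4 summits. The midline glia gene wrapper had 686, nearest CG13506, and the FGF receptor gene htl had 353. Of genes of other cells in the embryo, 3 of 8 neuronal genes had one, with elav at 1431, Syt1 at 496 (nearest CG15399) and fne at 353. Of 8 genes of hemocytes, another cell type in which gcm and gcm2 act, 2 had one: ush had 5806, nearest cbt, with 12 summits, and srp had 476. These lists are short and were chosen with earlier results of these data known, and no difference between them was tested.

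**Figure D4:**
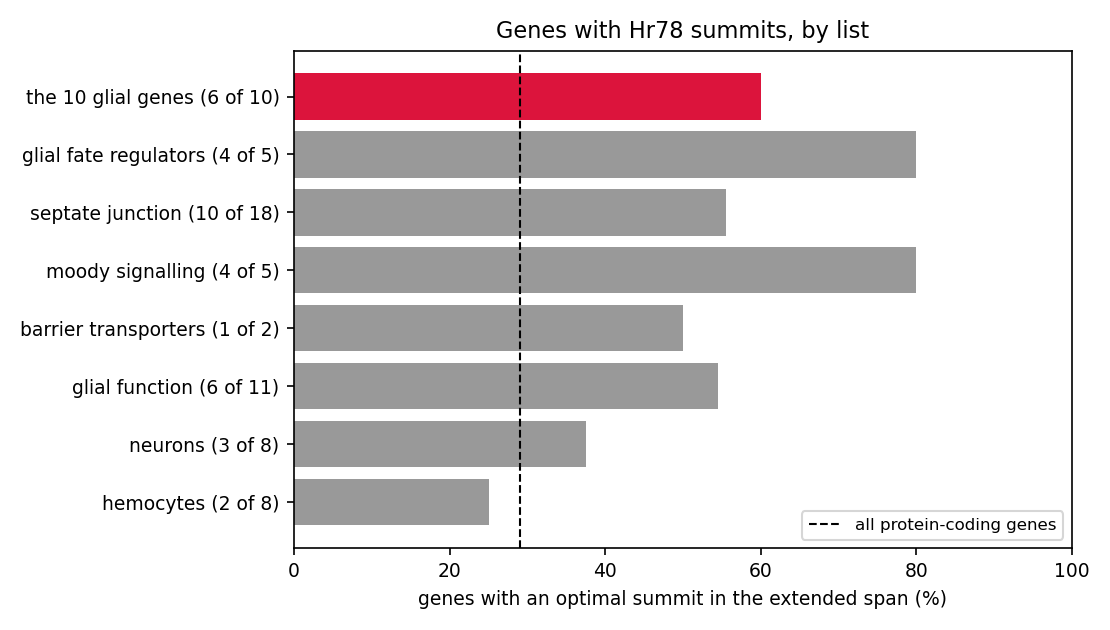
Share of genes (%) with an optimal summit in the span extended by 2 kb, for the 10 glial genes (red) and 7 other lists (grey), with the number of genes in parentheses. The dashed line is the share over all protein-coding genes, 29.0%; 6 of the 10 glial genes and 2 of 8 hemocyte genes had a summit.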

How the data were processed

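The authors' deposited peak lists were used: 1 per replicate, 1 on both replicates together and an optimal list thresholded on the irreproducible discovery rate. Each replicate and pooled list derives from alignments and a control file, per the accompanying text files. The aligner, caller and threshold are not stated in these sources. Chromatin was sonicated to 200 to 800 bp, per the labels. The peak signal is the caller's value, as deposited by the authors. Its scale differs between lists, so replicates were compared by rank. Deposited −log10 q-values were not used.

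Summits were placed as region start plus the deposited offset and given 1-based. Gene spans came from Ensembl release 115 (BDGP 6.54). A replicate summit was matched within 200 bp. Motifs were searched on both strands within 50 bp of a summit. The motif search was tested on planted AGGTCA sites. The limits of the extended spans were checked on planted positions, but the counting code itself was not tested. The rule named all 10 genes, up to 4 bound genes of each other list, and any gene whose start was nearest to a summit. Genes without a summit were named after their values were seen. The genes and lists were chosen with earlier results of these data known. Calculations used Python 3.11.15, numpy 2.4.6, pandas 2.3.3 and matplotlib 3.10.9. The labels call the replicates biological, both from 1 donor line.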

Additional observations from a re-analysis of the deposited data

How the results depend on the processing

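The number of glial genes with an optimal summit was 6 in the main rule and between 5 and 7 under the 10 alternatives. It was 6 with either replicate left out, using the highest peaks of the other in the same number. It was 5 above the median signal of the list, where loco dropped out, and 7 with spans extended by 5 kb, where gcm gained a Mtpalpha summit. The share of all genes with a summit also moved, to 14.2% at 0 kb and 42.2% at 5 kb (main 29.0%). The 17 optimal summits became 11 above the median. They became 13 with 1 summit per region, 13 without the higher-coordinate summit of close pairs and 13 with 0 kb. They ranged from 15 to 18 with a replicate left out. The 53 pooled summits became 35 above the median of their list and 80 with 5 kb, and ranged from 55 to 59 with a replicate left out. With 0 kb the highest signal at gcm2 was 689, and with 5 kb that at nrv2 was 1693, from nrv1. AGGTCA lay at 1 summit within 25 bp (main 4) and the 4 hexamer forms at 3 (main 7). At 25 bp these were 5.88% and 17.6%, against 5.78% and 17.7% of all optimal summits, so the excess over all summits seen at 50 bp was not present. Within 100 bp, AGGTCA lay at 5 summits (29.4%, against 15.7%) and the 4 forms at 9 (52.9%, against 46.5%). The excess was thus present at 50 and 100 bp only. Start-site windows of 250 bp held 3 summits and of 1000 bp held 14 (main 8). In all, 51 of 60 alternative values stayed within 1.5 times the main count or, for signals, were equal to it. That range is wide, since a fall from 17 to 13 summits stays within it. The signals were compared over nested spans of the same peaks, where equal values are likely. The tally is therefore a weak check. No paired analysis was possible because both replicates belong to 1 group. Depth is unknown, so no limit can be set on weaker binding at repo, Eaat1 and alrm.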

Other observations

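The 22.8 kb between the extended spans of gcm and gcm2, 2L:9583746-9606561, lie outside the rule but between the paired fate genes. They held 1 optimal summit, at 2L:9598530, with a signal of 306 and nearest the start site of CG4382. The pooled list had 11 summits there, of which 1 was nearest gcm and 1 nearest gcm2. No explanation of these values was tested.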
